A study of Homo sapiens with 6 samples.

Results

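The laminin chains described here are 9 genes, LAMA1, LAMA2, LAMA3, LAMA4, LAMA5, LAMB1, LAMB2, LAMB3 and LAMC1, taken by gene name from a table of 41497 named entries, with 1 entry on a primary chromosome for each. The RNA came from HK2 (HK-2) cells, which are wild-type, immortalised proximal tubular epithelial cells of the human kidney, left untreated or exposed to TGF-β1 for 24 hours. There were 3 libraries of untreated cells (control) and 3 of cells treated with TGF-β1, and the labels give both groups the same maintenance medium with fetal bovine serum, while the methods of the study describe TGF-β treatment without serum. All libraries came from 1 cell line, the labels give no dose of TGF-β1, and no source says whether the replicates were separate cultures, so p values measure the spread between these libraries, which may be technical.

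Laminins are the secreted proteins on which epithelial basement membranes are built. Each is a trimer of an α, a β and a γ chain, and its number names the chains in that order, so that laminin-332 holds α3 (LAMA3) and β3 (LAMB3), while laminin-511 holds α5 (LAMA5), β1 (LAMB1) and γ1 (LAMC1). The β and γ chains pair inside the cell and an α chain joins them before secretion, and the end of the α chain carries the domains that integrins and dystroglycan bind. Laminin-332 ties epithelial cells to the matrix through hemidesmosomes, laminins with α5 are abundant in mature epithelial basement membranes, the kidney's among them, and laminins with α4 are typical of vessels and mesenchyme.

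After TGF-β1, LAMA3 fell most, to 4.23-fold below control, and LAMA5 fell 1.91-fold. LAMB2, LAMB3 and LAMC1 fell by smaller steps, between 1.34-fold and 1.43-fold, and LAMB1 alone among the members rose, 1.35-fold. LAMA1 and LAMA2 did not pass the test, and LAMA4 had too few reads to be tested. The chains of a trimer did not move together. In laminin-511, LAMB1 rose while LAMA5 and LAMC1 fell, and in laminin-332 LAMA3 and LAMB3 both fell, but by different amounts.

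Of the 9 members, 8 passed the filter on low counts, and 6 of these were called, that is, they had an adjusted p under 0.05 in the edgeR quasi-likelihood test over 14860 genes. Over all tested genes, 44.3% were called. Among the members, 5 were called lower, against 22.1% of all genes, and 1 was called higher, against 22.2% of all genes. LAMA3 was the 1 member called at least 2-fold lower, against 5.38% of all genes. In 7 of the 8 tested members the 3 TGF-β1 libraries did not overlap the 3 control libraries, which was so for 55.6% of all genes. The median log2 fold change was -0.45 over the 8 tested members and 0.0063 over all tested genes.

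Stretches of promoter are shown here because LAMA3 and LAMB3, which fell, are the members in whose windows the AP-1 motif was found. LAMB1, which rose, and LAMA5, which fell, are shown as members without it. LAMB2 and LAMC1, which also fell, had none either, and a link of the motif with the changes was not tested. AP-1 is a transcription factor of the FOS and JUN families that acts downstream of many growth signals. Each is read 5′ to 3′ on the strand of the gene and ends at the base before a RefSeq start of transcription (GRCh38.p14). For LAMA3 it covers chr18:23872870-23873019 on the plus strand, for LAMB3 chr1:209651375-209651524 on the minus strand, for LAMB1 chr7:108003162-108003311 on the minus strand and for LAMA5 chr20:62367313-62367442 on the minus strand. Capitals mark the AP-1 motif TGANTCA in the first and second and the GC box GGGCGG, on either strand, in the others.
LAMA3: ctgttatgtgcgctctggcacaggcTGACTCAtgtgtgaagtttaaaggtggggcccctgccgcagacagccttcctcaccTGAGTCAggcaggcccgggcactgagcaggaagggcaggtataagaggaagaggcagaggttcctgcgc
LAMB3: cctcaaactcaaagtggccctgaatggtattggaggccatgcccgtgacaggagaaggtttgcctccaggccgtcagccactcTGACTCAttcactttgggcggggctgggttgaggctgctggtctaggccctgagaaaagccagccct
LAMB1: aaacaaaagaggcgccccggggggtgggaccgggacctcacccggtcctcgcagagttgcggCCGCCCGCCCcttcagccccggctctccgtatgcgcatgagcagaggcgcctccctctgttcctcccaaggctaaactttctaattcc
LAMA5: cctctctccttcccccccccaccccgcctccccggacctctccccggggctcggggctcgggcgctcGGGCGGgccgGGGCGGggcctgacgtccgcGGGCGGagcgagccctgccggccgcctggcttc

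Promoter windows of 300 bases, from 250 before a start to 50 after it, were given for 8 of the 9 members, with 3 starts for LAMB3. All motifs were searched on both strands. LAMA3 held TGANTCA 125 and 69 bases before its start, and LAMB3 held it 67 bases before the innermost of its 3 starts. This motif was in 2 of the 10 windows of members and in 7.71% of all 35116 windows in the RefSeq table. The LAMB3, LAMB1 and LAMA5 stretches reach 2, 15 and 6 bases into annotated exons. The LAMA3 start lies 183577 bases inside the gene, so it is the start of shorter transcripts, and the 150 bases shown hold 0 exonic bases in the annotation of the files, so they are intronic to the longer transcripts. The CAGAC motif that SMAD proteins bind was present in 5 of the 8 members (LAMA3, LAMA4, LAMA5, LAMB2 and LAMC1). That was 5 of the 10 member windows, against 45.3% of all windows. The E-box CAGGTG, bound by SNAI and ZEB factors, was present in LAMA3, LAMA5 and LAMB3. That was 3 of the 10 member windows, against 20.6% of all windows. The GC box was present in 6 members, in 8 of the 10 member windows, and in 44.95% of all windows. A match describes letters in a window, and binding at these positions was not measured.

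The 6 libraries held 21.9 to 26.9 M counts (M, megacounts). SMAD7, a textbook target of TGF-β, rose with a log2 fold change of 1.64 ± 0.09 (SE). Of 14 proximal tubule markers, 9 were under 1 CPM (counts per megacount) in every library, with LRP2 and SLC22A6 at 0, and the summed level of the list was 530.1 to 533.7 CPM in control and 754.2 to 789.5 CPM after TGF-β1. In this list 3 genes rose and 3 fell, with CDH6 going from 199 to 560.1 CPM and PAX8 from 251 to 151 CPM. The cells thus lacked most transport markers of the tubule named in their label. Epithelial markers summed to 807.8 to 868.4 CPM and to 1054 to 1213 CPM, although CDH1 was under 1 CPM throughout. KRT8 and KRT18 rose, while KRT19 and EPCAM fell with log2 fold changes of -1.34 and -1.25. Of the markers of other cell types, WT1 of podocytes was at 0, and NPHS1 of podocytes, PECAM1, VWF, KDR and TEK of vessels and PDGFRA and DCN of fibroblasts were under 1 CPM. Others were expressed and changed, with PODXL rising from 20.1 to 184 CPM, PDGFRB from 0.551 to 5.79 CPM, and LUM at 61.7 CPM in control and 50.99 CPM after TGF-β1. SYNPO of podocytes fell from 53.9 to 33.4 CPM, RGS5 from 6.04 to 4.74 CPM and THY1 from 0.895 to 0.269 CPM. CDH5 of vessels fell from 0.888 to 0 CPM. Of the podocyte genes 1 rose and 1 fell, and of the fibroblast and mural genes 1 rose and 3 fell. The summed podocyte list, with 2 of 4 genes under 1 CPM, was 71.5 to 77.5 CPM in control and 208 to 229 CPM after TGF-β1, the fibroblast and mural list, with 2 of 6 under 1 CPM, was 65.7 to 75.7 and 61.4 to 63.1 CPM, and the endothelial list, with 4 of 5 under 1 CPM, was at most 1.68 CPM. The leukocyte list was 92.0 to 102 CPM and 61.0 to 84.6 CPM, but 4 of its 5 genes were under 1 CPM, with CD3E and MS4A1 at 0. Nearly all of its sum was CD68, with means of 96.7 CPM in control and 71.0 CPM after TGF-β1. The part of these lists in the laminin results was not tested. In bulk libraries, fewer cells that express a gene and less RNA per cell cannot be told apart. TGF-b1 replicate 1 stood apart from the others on the second principal component, which held 9.945% of the variance. Without it the log2 fold change was -1.97 for LAMA3, 0.48 for LAMB1 and -0.41 for LAMC1, and these chains were still called.

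LAMA3 (chr18:23689443-23955066, plus strand, GRCh38) encodes the α3 chain of laminin-332 and laminin-311, the chain that α6β4 integrin binds in hemidesmosomes. Its level was 118, 109.8 and 117 CPM in the control libraries and 22.7, 29.1 and 29.8 CPM in the TGF-β1 libraries. The highest TGF-β1 library lay far below the lowest control library. The means were 115 ± 4.38 CPM and 27.2 ± 3.95 CPM (SD, n = 3 each), the log2 fold change was -2.08 ± 0.10 (SE), and the adjusted p was 6.4e-08. The counts behind these values were 8088 reads in control and 1919 after TGF-β1. Reads were counted per gene, so long and short LAMA3 transcripts could not be told apart.

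LAMA5 (chr20:62309060-62367318, minus strand) encodes the α5 chain of laminin-511 and laminin-521. Its levels of 189, 194 and 188 CPM in control fell to 98.9, 96.8 and 103 CPM after TGF-β1. The groups were widely separated and each was tight. Its log2 fold change was -0.93 ± 0.05 (SE), with an adjusted p of 1.1e-07.

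LAMA1 (chr18:6941742-7117797, minus strand) encodes the α1 chain of laminin-111, the laminin of the first embryonic basement membranes, which is also found in the tubular basement membrane. Its levels were 11.3, 10.1 and 10.7 CPM in control and 9.41, 13.9 and 13.6 CPM after TGF-β1. TGF-b1 replicate 1 lay below all control libraries and the other TGF-β1 libraries above them, so the groups overlapped. The log2 fold change was 0.20 ± 0.14 (SE, adjusted p = 0.28), with a 95% normal interval of -0.08 to 0.47 from its SE. Without TGF-b1 replicate 1 it was 0.35, with an adjusted p of 0.0055, so 1 library decided the call.

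LAMA2 (chr6:128883138-129516566, plus strand) encodes the α2 chain of the muscle and nerve laminin, laminin-211. It was low in every library, at 2.75, 2.98 and 2.86 CPM in control and 2.30, 1.86 and 2.24 CPM after TGF-β1. All TGF-β1 libraries lay below all control libraries, on 45 to 73 reads each. The log2 fold change was -0.42 ± 0.16 (SE), and the adjusted p of 0.0568 missed the threshold. With limma-voom the adjusted p was 0.0436, without TGF-b1 replicate 1 it was 0.0483, and in the 4 of 14 alternatives that moved it past the threshold the direction was unchanged.

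LAMA4 (chr6:112107931-112254722, minus strand) encodes the α4 chain of laminin-411 and laminin-421. It had 3, 5 and 5 reads in the control libraries and 5, 5 and 2 in the TGF-β1 libraries. LAMA4 was not tested, and at this depth only a large difference could be seen. The ratio of TGF-β1 to control, per TMM-scaled library size, was 0.915, with an exact 95% interval of 0.381 to 2.17 that covers counting error only. LAMA4 thus remained near 0 in both groups, while the β1 and γ1 chains of laminin-411 were among the most abundant.

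LAMB1 (chr7:107923799-108003176, minus strand) encodes the β1 chain of laminin-111, laminin-411 and laminin-511. It rose from 633, 635 and 645 CPM in control to 788, 891 and 905 CPM after TGF-β1. The groups did not overlap, and TGF-b1 replicate 1 was the lowest of the treated libraries. Its log2 fold change was 0.43 ± 0.06 (SE), with an adjusted p of 2.2e-04.

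LAMB2 (chr3:49121114-49133066, minus strand) encodes the β2 chain, which replaces β1 in laminin-521, the main laminin of the mature glomerular basement membrane. Its levels were 153, 146 and 144 CPM in control and 115, 108.2 and 108.2 CPM after TGF-β1. Every treated library was below every control library. This was a log2 fold change of -0.42 ± 0.05 (SE), with an adjusted p of 9.2e-05.

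LAMB3 (chr1:209614870-209652467, minus strand) encodes the β3 chain, which among laminins is known from laminin-332. Its levels were 114, 114 and 112 CPM in control and 82.6, 79.2 and 76.4 CPM after TGF-β1. The control libraries lay close together, above all treated ones. The log2 fold change was -0.52 ± 0.05 (SE), with an adjusted p of 1.7e-05, a smaller fall than that of LAMA3 in the same trimer.

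LAMC1 (chr1:183023420-183145592, plus strand) encodes the γ1 chain, which most laminins share. Its levels were 813, 833 and 856 CPM in control and 529, 638 and 626 CPM after TGF-β1. The groups did not overlap, and TGF-b1 replicate 1 was the lowest. The log2 fold change was -0.48 ± 0.07 (SE), with an adjusted p of 3.2e-04.

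**Figure D1:**
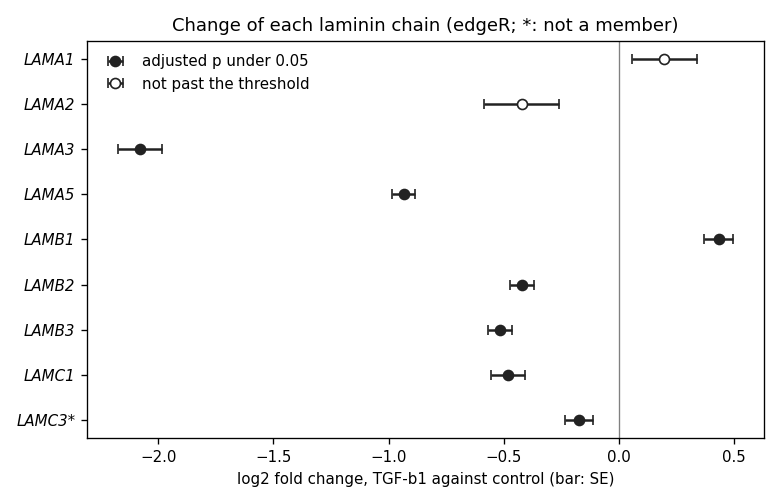
Log2 fold change of each tested laminin chain, TGF-β1 against control, with its standard error as a horizontal bar. Filled points passed an adjusted p of 0.05 in edgeR and open points did not. LAMA3 lies near -2.08 and LAMA5 near -0.93, most other chains lie between these and 0, and LAMB1 and, as an open point, LAMA1 lie to the right of 0. LAMC3 (starred) is not among the 9 members.

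Outside the members, LAMC3 and LAMB4 were read beside them. LAMC3, the γ3 chain, was at 135, 134 and 123 CPM in the control libraries and 123, 112 and 112 CPM in the treated ones. It had a log2 fold change of -0.17 ± 0.06 (adjusted p = 0.0383). The groups overlapped by 1 library each, and the adjusted p was between 0.117 and 0.143 when any 1 of TGF-b1 replicates 2 and 3 or control replicates 1 and 2 was left out. LAMB4, with 5 control reads and 10 from treated cells, was not tested.

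Levels of different chains can be set side by side per length, as fragments per kilobase and megacount (FPKM). The authors computed this over the summed exon length of each gene, which for LAMA3 was 11559 bases. If the LAMA3 reads came from its shorter transcripts, its level, rank and share, and its ratios to other chains, are too low here. Which transcripts gave them was not tested. In control, LAMC1 at 109 ± 3.66 FPKM and LAMB1 at 99.6 ± 1.76 FPKM (SD, n = 3 each) were the highest of the chains described here. The next 4 were LAMB2 at 26.8 ± 0.683, LAMB3 at 25.9 ± 0.111, LAMC3 at 17.6 ± 0.789 and LAMA5 at 17.0 ± 0.325 FPKM. LAMC3 and LAMA5 overlapped, and the 3 values of LAMB2 lay just above those of LAMB3.

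The remaining α chains came next, and LAMB4, outside the members, was last in both groups, at 0.00802 ± 0.00263 FPKM in control. LAMA3 stood at 10.3 ± 0.389 FPKM in control, LAMA1 at 1.15 ± 0.0619, LAMA2 at 0.187 ± 0.00853 and LAMA4 at 0.0252 ± 0.00619. After TGF-β1, LAMB1 at 125 ± 8.33 FPKM passed LAMC1 at 72.3 ± 6.73, and no other neighbours among these chains changed places. LAMA3 dropped to 2.26 ± 0.313 FPKM, and so moved closer to LAMA1 at 1.22 ± 0.242. FPKM is set by the total count, so its changes differ by -0.11 on the log2 scale from those of the edgeR fit.

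**Figure D2:**
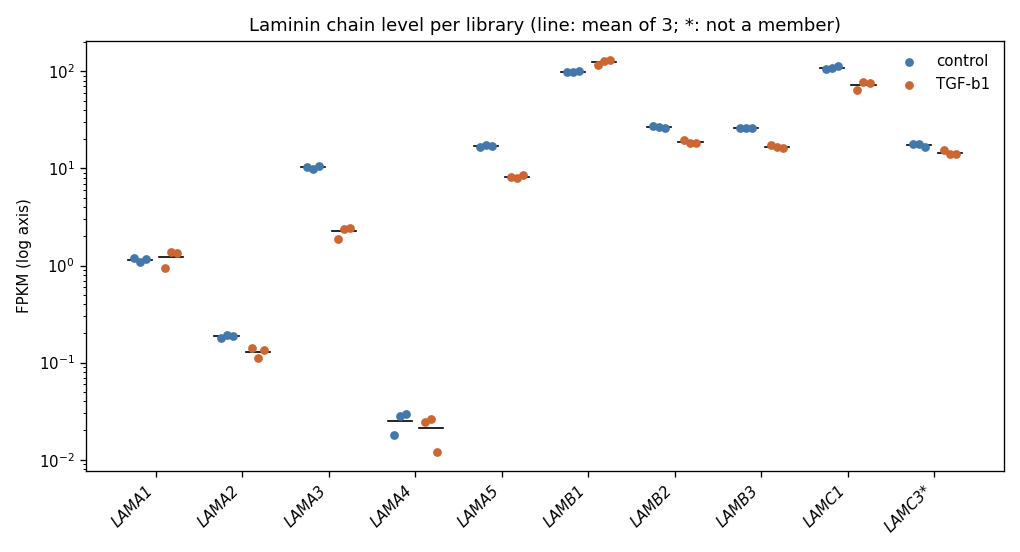
Level of each laminin chain in each library, in FPKM on a log axis, with a short line at the mean of 3 libraries. Control and TGF-β1 libraries are in different colours. The members that are β or γ chains sit above the α chains in both groups, and the gap between groups is widest for LAMA3, from 10.3 to 2.26 FPKM.

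Read as trimers by summed exon length, with the limit given above for LAMA3, the α chain was the least abundant of the chains described here. This was so in all 8 trimers considered and in both groups. In laminin-332, LAMA3 stood at 10.3 FPKM in control and 2.26 FPKM after TGF-β1, against 25.9 and 16.8 FPKM for LAMB3. In laminin-511 and laminin-521 the lowest chain was LAMA5, which went from 17.0 to 8.25 FPKM. In laminin-411 and laminin-421 it was LAMA4, at 0.0252 and 0.0210 FPKM. These are RNA levels of chains, and the trimers themselves were not measured.

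The ratio of FPKM between chains of 1 library does not depend on how libraries are scaled. The α3 to α5 ratio, LAMA3 over LAMA5, was 0.625, 0.566 and 0.624 in the control libraries and 0.229, 0.301 and 0.290 in the treated ones. The groups did not overlap, and the log2 ratio fell by 1.15. The two-sided exact permutation test of 3 against 3 libraries cannot give a p below 0.1, so no ratio could pass the threshold, and the 6 of 8 ratios whose groups did not overlap each had this p (0.133 after adjustment over the 8).

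The β ratios moved towards β1. LAMB3 over LAMB1 was 0.264, 0.263 and 0.254 in the control libraries and 0.153, 0.130 and 0.123 in the treated ones, with a log2 change of -0.95. LAMB2 over LAMB1 changed by -0.85 on the log2 scale, from geometric means of 0.269 to 0.149. LAMB3 over LAMB2 moved little, by -0.098 on the log2 scale, from 0.969 to 0.905, although its groups did not overlap.

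Among the remaining α ratios, LAMA1 over LAMA5 rose by 1.11 on the log2 scale, from geometric means of 0.0675 to 0.146. The groups of this ratio did not overlap. LAMA3 over LAMA4 changed by -1.88 without overlap, LAMA4 over LAMA5 by 0.73 and LAMA2 over LAMA4 by -0.22, the last pair both with overlap. Ratios with LAMA4 rest on 2 to 5 LAMA4 reads a library.

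Shares of each chain class followed these ratios. LAMA3 held 36.6%, 34.5% and 36.6% of the summed α-chain FPKM in control and 16.8%, 20.2% and 19.8% after TGF-β1. LAMA5 held 59.4% ± 1.35 in control and 69.5% ± 3.33 after TGF-β1 (SD, n = 3 each), although its own level fell. LAMA1 went from 4.01% ± 0.210 to 10.3% ± 1.67 without a change of level that passed the test.

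Among the β chains, LAMB1 held 64.7%, 65.4% and 66.1% in the control libraries and 75.6%, 78.7% and 79.2% in the treated ones. LAMB2 went from 17.6% ± 0.554 to 11.6% ± 1.02, and LAMB3 from 17.0% ± 0.181 to 10.5% ± 0.938.

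**Figure D3:**
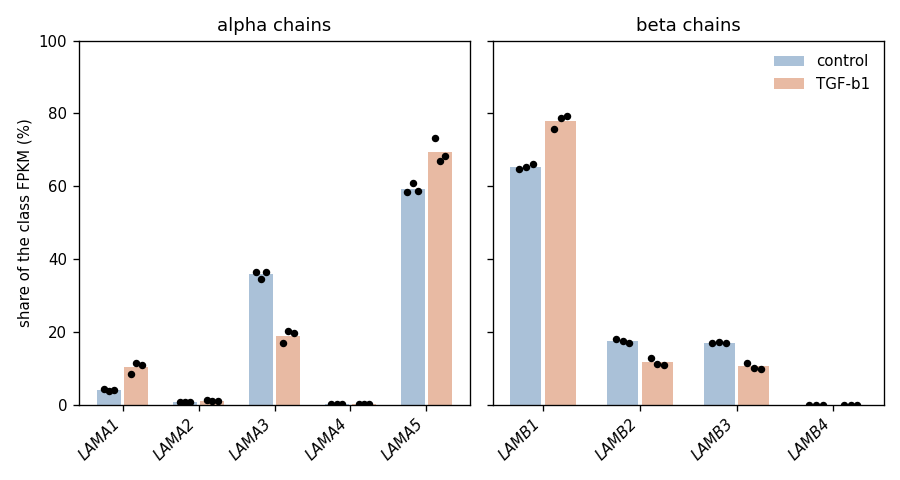
Share of each chain in the summed FPKM of its class, in percent, for α and β chains. Bars are means of 3 libraries and dots are the libraries. The share of LAMA3 falls from 35.9% to 18.9%, and that of LAMB1 rises from 65.4% to 77.8%.

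Summed over the class, the α chains were lower after TGF-β1, and the β sum moved little by comparison. These sums were added after the values were seen. The α sum was 28.6, 28.5 and 28.8 FPKM in control and 11.3, 11.9 and 12.5 FPKM after TGF-β1. The β sum was 152 ± 1.14 and 160 ± 6.78 FPKM, with overlap between groups on this scale, which is set by the total count. In the edgeR fit, which scales libraries otherwise, LAMB1, the largest part of this sum, was called higher and LAMB2 and LAMB3 lower. As a percentage of the β sum, the α sum was 18.8% ± 0.0541 in control and 7.42% ± 0.136 after TGF-β1.

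The neighbours of the laminin genes were read for overlap and for shared change. Of 17 nearest tested genes beside the 9 members, 7 were called, a share near the 44.3% of all genes. By direction, 1 was called higher and 6 lower, against 22.2% and 22.1% of all genes, and this split was not tested. LAMC1-AS1, on the opposite strand within LAMC1, had 124 control reads and 59 from treated cells, and the annotation of the files gave it 0 exonic bases in common with LAMC1. The strand of the reads is not stated, so reads of overlapping genes could not be told apart by strand. LAMA5-AS1 shared 118 exonic bases with LAMA5 but had 1 read in each group, against 13413 and 7071 for LAMA5. G0S2, 22945 bases beyond LAMB3, and ANKRD29, 26529 bases from LAMA3, fell, with log2 fold changes of -0.94 ± 0.07 and -1.27 ± 0.19 (SE). TTC39C on the other side of LAMA3 was at -0.16 ± 0.08 (adjusted p = 0.126), and DLD, 2601 bases from LAMB1, was at 0.019 ± 0.051 (adjusted p = 0.79). ADRM1, 198 bases from LAMA5, was at 0.21 ± 0.09 (adjusted p = 0.0753), RPS21, 18957 bases on its other side, was at -0.27 ± 0.13 (adjusted p = 0.148), and USP19, 181 bases from LAMB2, was at 0.32 ± 0.36 (adjusted p = 0.513). CCDC71, 29469 bases on the other side of LAMB2, was at -0.07 ± 0.09 (adjusted p = 0.552).

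Genes that work with laminins were read from lists of 69 genes. Of these, 56 were tested and 43 called (76.8% of those tested), 21 higher and 22 lower, with a median log2 fold change of -0.06. Over all tested genes 44.3% were called, 22.2% higher and 22.1% lower, and these shares apply beside each list below. The lists were chosen with earlier results known, and the difference from all genes was not tested. Among 16 receptors, 6 rose, 7 fell and 3 did not pass, with a median of 0.03. ITGA2, an integrin chain that binds collagen and laminin, rose by 1.12 ± 0.08 (SE) on the log2 scale. ITGB4, the β4 integrin that binds laminin-332 in hemidesmosomes, fell from 6.25, 6.62 and 6.09 CPM to 2.19, 1.82 and 2.15 CPM, a log2 fold change of -1.62 ± 0.14. BCAM, the Lutheran protein that binds α5 laminins, changed by -1.41 ± 0.08. ITGA6, the partner of ITGB4, was at 0.16 ± 0.11 (adjusted p = 0.28). Among called integrin chains below the 2-fold limit, ITGB1 rose by 0.86 ± 0.07, from a mean of 1648 to 3002 CPM. ITGA3 changed by -0.26 ± 0.06, from a mean of 567 to 473 CPM.

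In the hemidesmosome list, with 6 genes tested, 3 fell and 1 rose. Of those that fell, COL17A1 was near the floor, with means of 0.826 CPM in control and 0.274 CPM after TGF-β1. These means came from 58 and 19 reads. DST, whose products include the plakin that links β4 integrin to keratin, was at 628, 601 and 671 CPM in control. After TGF-β1 it was at 233, 357 and 381 CPM. DST changed by -0.97 ± 0.20 on the log2 scale, with TGF-b1 replicate 1 the lowest. Its reads were counted over 33778 bases of summed exons. Transcripts of the hemidesmosome plakin thus could not be told apart from other DST transcripts. PLEC, another plakin of hemidesmosomes, was at 0.045 ± 0.058 (adjusted p = 0.56). The median of the list was -0.46. ITGA6, ITGB1, ITGA3, PLEC, DST and COL17A1 were named after their values were seen.

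The basement membrane partners, proteins that laminin networks are tied to, gave 7 higher and 5 lower of 15 tested, with a median of 0.05. COL4A1 and COL4A2, which form the main type IV collagen network, rose by 1.92 ± 0.05 and 1.07 ± 0.06 on the log2 scale, and COL15A1, a collagen of the basement membrane zone, rose by 2.04 ± 0.15. NID2, a nidogen that bridges laminin γ1 and type IV collagen, changed by -1.20 ± 0.07, while NID1 was at 0.017 ± 0.053 (adjusted p = 0.817, named after its value was seen). COL4A5, another type IV collagen chain, was at -0.37 ± 0.14 (adjusted p = 0.0598, named after its value was seen).

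The list of enzymes that cut laminins gave 4 higher and 0 lower of 5 tested, with a median of 1.09. MMP2 and MMP14, metalloproteinases that cut laminin-332, rose by 3.77 ± 0.18 and 1.09 ± 0.06 on the log2 scale, MMP2 from a mean of 0.453 to 6.24 CPM. TLL1, of the tolloid family with BMP1, which trims the α3 chain, rose by 1.65 ± 0.10. Among 6 tested proteins with laminin-type domains 1 rose and 3 fell, with a median of -0.70, and NTNG1, a netrin relative, changed by -1.07 ± 0.06. Of 11 tested enzymes that build the dystroglycan sugar to which laminins bind, 3 rose and 5 fell, with a median of -0.32, and none met the size rule for naming.

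**Figure D4:**
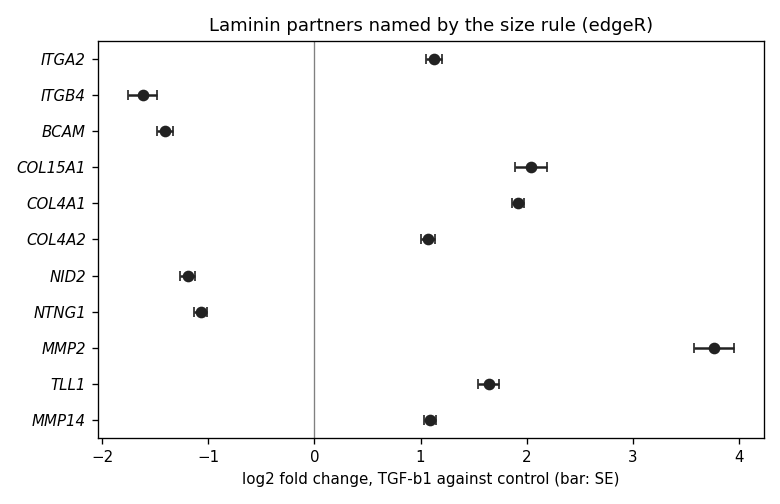
Log2 fold change of the 11 laminin partners named by the size rule, TGF-β1 against control, with the standard error as a horizontal bar. ITGB4, BCAM, NID2 and NTNG1 lie below 0 and the rest above it, with MMP2 farthest to the right at 3.77.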

How the data were processed

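Messenger RNA of HK-2 cells was purified with oligo(dT) beads, primed with random hexamers and sequenced in read pairs. The authors removed adapters and low-quality reads. The submitters' processing notes name CASAVA, featureCounts 2.0.1, DESeq2 1.16.1 and hg38, without the role of each. Per the file headers, each library was deposited as raw counts per gene, with TPM and FPKM values that the authors computed from the same counts. TPM was used only as an alternative to FPKM. Gene names and positions follow RefSeq (GRCh38). Each table held 42095 entries, of which 598 without a name (0.396% to 0.464% of counts) were left out, and 7 records per table that were broken over lines were rejoined.

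The labels gave 3 control and 3 TGF-β1 libraries, with 21.9 to 26.9 M counts each. Counts were filtered with filterByExpr (minimum count of 10), scaled by TMM and tested across all 14860 genes kept with the two-sided quasi-likelihood F test of edgeR 4.0.16 in R 4.3.3. Benjamini-Hochberg adjustment was over these genes, and genes with an adjusted p under 0.05 were called. CPM used TMM-scaled library sizes. The standard error was the log2 fold change divided by the square root of F. Chain ratios and shares used FPKM and the exact permutation test over libraries (scipy 1.17.1). The interval of the LAMA4 reads was an exact 95% binomial interval, which covers counting error only.

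The members and the gene lists (laminin partners in 6 lists and markers of 6 cell types) were chosen with earlier results of these data known. Named were all members, LAMC3 and LAMB4, overlapping and nearest tested genes (the latter by count, with values for those within 30 kb of a called member and TTC39C), SMAD7, and, of the related genes called and at least 2-fold with a mean of at least 5 CPM in either group, at most 3 in each direction per list. Some genes that this rule names are not reported here.

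The alternatives were DESeq2 1.42.0, limma-voom (limma 3.58.1), RLE size factors, total counts only, no filter, a mean of at least 50 counts, entries of a name summed, a replicate block, TPM or undivided counts for ratios and shares, and leaving out each library.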

Additional observations from a re-analysis of the deposited data

How the results depend on the processing

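The direction of all 8 tested laminin chains was the same under all 14 alternatives, and the 6 called chains stayed called under each of them. LAMA3 ranged from -2.19 to -1.97, LAMA5 from -1.04 to -0.92 and LAMB1 from 0.33 to 0.48 on the log2 scale. LAMA2 became called with limma-voom, a mean of at least 50 counts, total counts only, and without TGF-b1 replicate 1, and LAMA1 without TGF-b1 replicate 1, so that 6 to 8 chains were called when 1 library was left out. Scaling by total counts only moved the median of all tested genes by -0.11 on the log2 scale. It then called 2134 genes higher and 4590 lower, against 3294 and 3288, and 31.7% of calls were higher, against 50.05%. Without division by length, the LAMB1 share of β-chain counts was 70.9% in control and 81.9% after TGF-β1. Without TGF-b1 replicate 2, the log2 change of LAMA2 over LAMA4 was 0.076, and over the libraries left out in turn it ran from -0.62 to 0.076, on few LAMA4 reads. Leaving out 1 library gave 2646 to 3545 genes called higher and 2687 to 3651 lower.

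The labels number the replicates in each group. Same-numbered libraries had correlations of their deviations from the group means of 0.111, -0.0117 and 0.0762, and not every library correlated best with its own number, so the numbers were not taken to pair them. With the replicate block, 6 laminin chains, 43 related genes, 3396 genes higher and 3394 lower were called. Low chains, LAMA2 and LAMA4 above all, are limited by their depth of at most 73 reads a library.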
